A study of Homo sapiens with 6 samples.

Results

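The 32 genes described here encode enzymes of cholesterol synthesis from acetyl-CoA onwards (18 genes) and proteins that sense, take up, move and store sterols (14 genes). They were chosen by name for their roles in the pathway, with earlier results of these data known, from a table of gene counts that holds 35554 genes, and each of the 32 symbols was found exactly once. All 32 passed the filter on low counts that left 19711 genes for testing. RNA was sequenced from LNCaP cells, an established androgen-dependent prostate cancer line of metastatic origin (3 libraries), and from LNCaP-enzaR cells (3 libraries). The latter are 1 line derived from LNCaP by continuous exposure to the drug enzalutamide, which blocks androgen signalling, and were afterwards kept on less of it. Whether the drug was present at harvest is not stated in the labels. Both lines were grown in flasks to below confluence, 3 flasks each. With a single resistant line, p-values measure the spread between flasks, and a property of resistance cannot be told apart from a property of this line.

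Cells obtain cholesterol either by making it, through mevalonate, squalene and lanosterol, or by taking up lipoproteins whose sterol is released in lysosomes. When membranes of the endoplasmic reticulum are low in sterol, the SREBP transcription factors are escorted by SCAP to the Golgi, are cut there, and activate genes of synthesis and uptake. When sterol is plentiful, INSIG proteins hold SCAP back, and oxysterols activate the LXR receptors, which drive genes of sterol removal. In prostate cells, androgens are known to raise SREBP activity.

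Of the 32 genes, 14 fell and 4 rose in LNCaP-enzaR relative to LNCaP. The threshold for this call was an adjusted p of at most 0.05 (edgeR quasi-likelihood test, Benjamini-Hochberg over 19711 genes) and a change of at least 1.5-fold. The lines differed widely, so these counts have to be read against the background: 42.7% of all genes tested passed the same threshold, 19.5% as lower and 23.3% as higher. A negative log2 fold change was found in 24 of the 32 genes, beside 49.5% of all genes tested. The median of the 32 was -0.45, beside 0.01 over all genes tested. Before any minimum fold, 30 of the 32 had an adjusted p of at most 0.05, 22 of them lower. The same held for 13074 of all 19711 genes tested, in either direction. The CPM values (counts scaled to a TMM-adjusted library of 1000000) of the lines did not overlap in 29 genes, against a background of 70.6%. As the plot of levels in every library shows, libraries of a line lay close together for most of these genes.

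**Figure D1:**
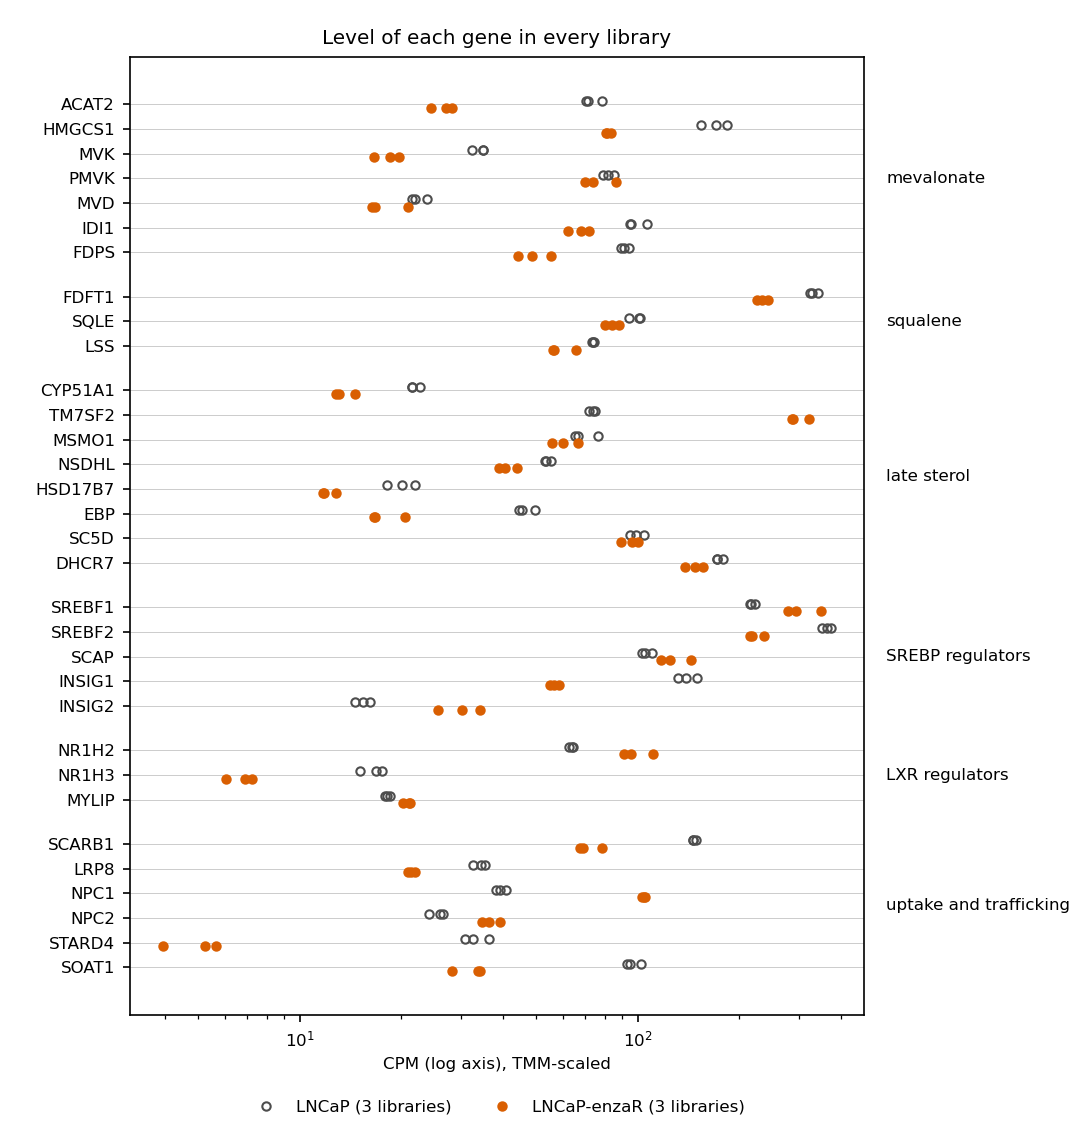
Level of each of the 32 genes in CPM (log axis) in the 3 LNCaP libraries (open grey circles) and the 3 LNCaP-enzaR libraries (filled orange circles), grouped by step. STARD4, ACAT2, EBP, SOAT1 and INSIG1 lay lower in every LNCaP-enzaR library and TM7SF2, NPC1 and INSIG2 higher, whereas PMVK, MSMO1 and SC5D overlapped.

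The libraries held 77759122 to 98616465 counts, which put a count of 3 at 0.0302 to 0.0382 CPM, far below the lowest member value of 3.94 CPM. Transcripts of the mitochondrial genome took 6.72% to 7.06% of counts in LNCaP and 14.7% to 15.5% in LNCaP-enzaR. Of 6 prostate luminal markers 5 fell, beside 19.5% of all genes tested. TMPRSS2 did not pass, though it was higher in every LNCaP-enzaR library (log2 fold change 0.16). The summed level of the 6 was 4042 to 4163 CPM in LNCaP and 1812 to 1844 CPM in LNCaP-enzaR. Much of that difference came from KLK3, with means of 1190 and 141 CPM. Of the 3 basal markers, KRT5 and TP63 were at or near 0 in every library, and the summed basal level was at most 1.71 CPM. The 3 fibroblast markers in the table summed to 14.3 to 17.3 CPM and 6.43 to 7.68 CPM, a sum that COL1A1 carried (log2 fold change -1.64), while COL3A1 did not pass and PDGFRB rose from 0.641 to 1.73 CPM (1.43). The basal marker KRT14 fell from 1.34 to 0.592 CPM (-1.18), and the leukocyte marker PTPRC reached at most 0.0504 CPM. The part of the luminal and mitochondrial shifts in the results below was not tested, although leaving the mitochondrial genes out before scaling also gave 14 lower and 4 higher. In bulk RNA, fewer cells that express a gene and less of its RNA per cell cannot be told apart.

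The mevalonate steps turn acetyl-CoA into the isoprenoid farnesyl diphosphate. All 7 of their enzymes had a negative change, 4 of them past the threshold, with a median log2 fold change of -0.89. Of all genes tested, 49.5% had a negative change and 19.5% passed as lower. ACAT2, the thiolase that joins the first acetyl-CoA units, had 71.3, 70.2 and 78.4 CPM in LNCaP and 28.2, 27.2 and 24.5 CPM in LNCaP-enzaR. That was a 2.75-fold decrease (log2 fold change -1.46, SE 0.072, adjusted p = 2.79e-10), and every LNCaP-enzaR library lay below every parental one. HMGCS1, the synthase of the following step and a classic SREBP target, had 184, 154 and 170.1 CPM in LNCaP and 81.4, 83.2 and 80.5 CPM in LNCaP-enzaR (2.07-fold lower, log2 fold change -1.05, SE 0.065, adjusted p = 3.38e-09). The LNCaP-enzaR libraries agreed to within a few CPM for HMGCS1, while the parental ones spread more widely. MVK, which phosphorylates mevalonate, had 34.9, 32.3 and 34.9 CPM in LNCaP and 19.6, 16.5 and 18.5 CPM in LNCaP-enzaR (1.87-fold lower, log2 fold change -0.90, SE 0.077, adjusted p = 1.08e-07). FDPS, which builds farnesyl diphosphate at the end of this stretch, had 89.1, 91.2 and 94.5 CPM in LNCaP and 55.2, 44.2 and 48.8 CPM in LNCaP-enzaR (1.85-fold lower, log2 fold change -0.89, SE 0.075, adjusted p = 9.86e-08). The lines did not overlap for MVK or FDPS, as in 70.6% of all genes.

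The other 3 mevalonate enzymes did not pass. IDI1, the isomerase that makes the second isoprenoid building block, stood just short of the fold limit with 107, 94.9 and 95.4 CPM in LNCaP and 62.3, 71.9 and 68.1 CPM in LNCaP-enzaR (1.47-fold, log2 fold change -0.55, SE 0.069, adjusted p = 5.91e-06). Its lines did not overlap, and it crossed the limit when libraries were scaled by their totals (log2 fold change -0.59) and in fits without LNCaP replicate 2 (-0.59), LNCaP replicate 3 (-0.59) or LNCaP-enzaR replicate 2 (-0.60). MVD, which decarboxylates mevalonate diphosphate, had 22.0, 21.4 and 23.8 CPM in LNCaP and 21.0, 16.4 and 16.8 CPM in LNCaP-enzaR (log2 fold change -0.31, SE 0.093, adjusted p = 0.00873). All LNCaP-enzaR libraries lay below the parental range of MVD, with replicate 1 the closest to it. PMVK, the second mevalonate kinase, had 78.8, 81.4 and 85.0 CPM in LNCaP and 86.4, 69.9 and 73.5 CPM in LNCaP-enzaR (log2 fold change -0.09, SE 0.075, adjusted p = 0.286), so that its lines overlapped and no difference was detected. Summed over the 7 genes, the level was 572 ± 22.4 CPM in LNCaP and 338 ± 13.95 CPM in LNCaP-enzaR (SD, n = 3 each), which is 40.9% lower.

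Some of these genes share exonic bases with a neighbour, and the strand setting used in counting is not stated, so that reads in shared bases cannot be assigned. For ACAT2 the shared part was 20.9%, with SOD2-OT1 and TCP1 on the other strand. TCP1, a chaperonin subunit, itself fell from 668 ± 18.3 to 336 ± 15.9 CPM (log2 fold change -0.99). For FDPS it was 18.6% and for IDI1 14.97%, in both cases with an antisense RNA whose own level was under 2 CPM in every library.

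The squalene steps commit isoprenoids to sterol, and none of their 3 enzymes passed the threshold, beside 42.7% of all genes tested. FDFT1, the squalene synthase, had 329, 324 and 342 CPM in LNCaP and 242, 234 and 225 CPM in LNCaP-enzaR (1.42-fold lower, log2 fold change -0.50, SE 0.052, adjusted p = 9.25e-07). SQLE, the epoxidase that is often taken as a rate-limiting step after mevalonate, had 101, 93.9 and 101 CPM in LNCaP and 79.8, 88.3 and 84.1 CPM in LNCaP-enzaR (log2 fold change -0.23, SE 0.060, adjusted p = 0.00341). LSS, which closes the ring to give lanosterol, had 74.4, 73.2 and 73.5 CPM in LNCaP and 65.8, 56.6 and 56.0 CPM in LNCaP-enzaR (log2 fold change -0.31, SE 0.068, adjusted p = 0.00104). In all of them every LNCaP-enzaR library was below every parental one and the adjusted p was under the limit, so that the minimum fold alone decided the call. Over all genes tested, the lines did not overlap in 70.6%, and 13074 of 19711 had an adjusted p of at most 0.05. Their summed level was 504 ± 12.3 CPM in LNCaP and 377 ± 11.3 CPM in LNCaP-enzaR.

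**Figure D2:**
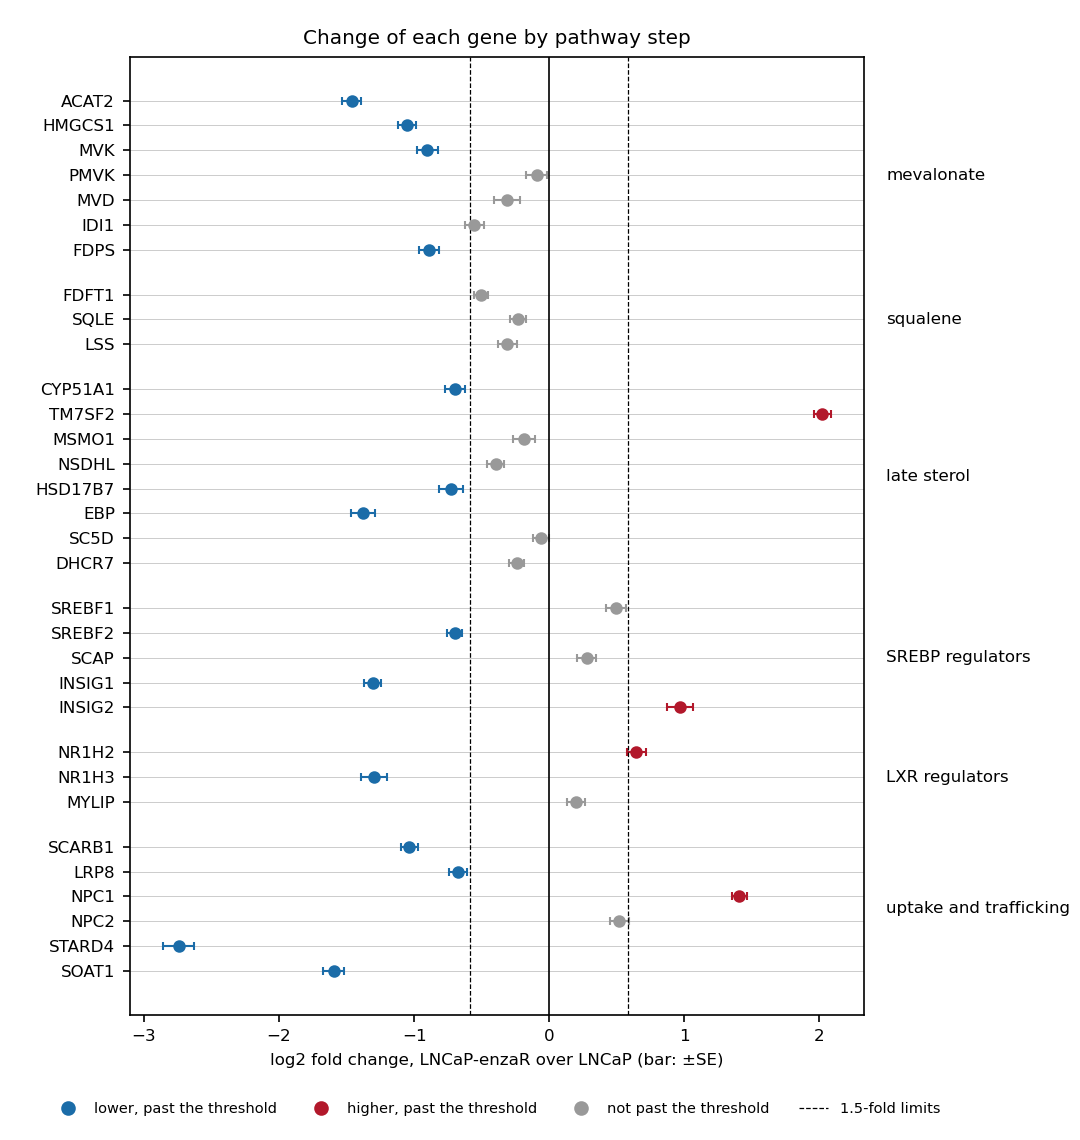
Log2 fold change of LNCaP-enzaR over LNCaP with its SE for each gene, by step, with dashed lines at the 1.5-fold limits. Blue points are lower and red points higher past the threshold, and grey points did not pass. All 18 synthesis enzymes but TM7SF2 lie left of 0, while the regulators and transport genes lie on both sides.

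From lanosterol to cholesterol, 3 of 8 enzymes fell, 1 rose and 4 did not pass, a share past the threshold near the 42.7% of all genes. EBP, the isomerase that shifts the double bond within the sterol ring, had 45.5, 44.7 and 49.6 CPM in LNCaP and 20.5, 16.6 and 16.7 CPM in LNCaP-enzaR (2.60-fold lower, log2 fold change -1.38, SE 0.087, adjusted p = 3.93e-09). HSD17B7, a ketosteroid reductase of the demethylation complex, had 22.0, 18.1 and 20.1 CPM in LNCaP and 11.8, 12.8 and 11.8 CPM in LNCaP-enzaR (1.66-fold lower, log2 fold change -0.73, SE 0.086, adjusted p = 3.44e-06). CYP51A1, the cytochrome that removes the first methyl group from lanosterol, had 22.7, 21.4 and 21.5 CPM in LNCaP and 14.6, 13.04 and 12.8 CPM in LNCaP-enzaR (1.62-fold lower, log2 fold change -0.70, SE 0.077, adjusted p = 1.69e-06). The lines were separate for each of these genes, as in 70.6% of all genes, with the widest gap for EBP. EBP shared 36.4% of its exonic bases with a gene model that held at most 12 counts in any library, and HSD17B7 has a transcribed pseudogene copy, HSD17B7P2, that stood at 1.28 ± 0.164 CPM in LNCaP and 0.912 ± 0.236 CPM in LNCaP-enzaR.

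The other 4 late enzymes stayed under the fold limit. NSDHL, the dehydrogenase of the demethylation complex, had 53.6, 53.3 and 55.6 CPM in LNCaP and 44.003, 40.5 and 39.0 CPM in LNCaP-enzaR (log2 fold change -0.40, SE 0.064, adjusted p = 7.70e-05). DHCR7, a reductase of the final steps, had 171, 172 and 179 CPM in LNCaP and 156, 148 and 138 CPM in LNCaP-enzaR (log2 fold change -0.24, SE 0.057, adjusted p = 0.00185). Both were below the parental range in every LNCaP-enzaR library without reaching the fold limit. MSMO1, the methylsterol oxidase, had 76.5, 65.2 and 66.4 CPM in LNCaP and 55.8, 66.8 and 60.2 CPM in LNCaP-enzaR (log2 fold change -0.19, SE 0.079, adjusted p = 0.0490), with LNCaP-enzaR replicate 2 inside the parental range. SC5D, the desaturase that acts before DHCR7, had 104, 98.6 and 95.1 CPM in LNCaP and 89.1, 100.04 and 96.5 CPM in LNCaP-enzaR (log2 fold change -0.06, SE 0.062, adjusted p = 0.410), and its lines overlapped.

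TM7SF2 was the only synthesis enzyme that rose, and it had the largest increase of the 32 genes. It encodes a reductase in the endoplasmic reticulum that acts directly after CYP51A1 and lies on chromosome 11 (GRCh38, chr11:65111845-65116384). It had 73.9, 72.0 and 74.5 CPM in LNCaP and 321, 289 and 285 CPM in LNCaP-enzaR, with means of 73.5 ± 1.31 and 298 ± 19.6 CPM. The increase was 4.06-fold (log2 fold change 2.02, SE 0.060, adjusted p = 1.72e-12), and the lowest LNCaP-enzaR library was far above the highest parental one. Per kilobase of exon, its level went from 21.6 ± 0.383 to 87.6 ± 5.76 CPM, the highest of the 32 genes in LNCaP-enzaR, followed by PMVK at 76.4 ± 8.63. In LNCaP the highest per kilobase were PMVK at 81.6 ± 3.12 and FDFT1 at 65.3 ± 1.78. The genes on either side of TM7SF2 did not pass the threshold, with log2 fold changes of -0.22 for VPS51 and 0.30 for ZNHIT2. With TM7SF2, the summed level of the late enzymes was 559 ± 12.4 CPM in LNCaP and 686 ± 26.1 CPM in LNCaP-enzaR. Without it, the other 7 summed to 485 ± 11.3 and 388 ± 11.7 CPM, so that this 1 gene set the direction of the sum. Over all 18 synthesis enzymes the sum was 1634 ± 44.7 CPM in LNCaP and 1402 ± 49.4 CPM in LNCaP-enzaR with TM7SF2, and 1561 ± 43.5 and 1103 ± 31.2 CPM without it.

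The reaction of TM7SF2 can also be carried out by LBR, the lamin B receptor, a protein of the inner nuclear membrane with a sterol reductase domain. LBR is not one of the 32 genes and was looked up after the value of TM7SF2 had been seen. It had 109.9, 104 and 103 CPM in the parental libraries and 21.3, 26.7 and 25.1 CPM in LNCaP-enzaR. That was a decrease of 4.33-fold (log2 fold change -2.11, SE 0.079, adjusted p = 1.71e-11), and it ranged from -2.18 to -2.01 on the log2 scale over the 15 alternatives. The genes thus moved in opposite directions, with no overlap between the lines for either. Of the summed level per kilobase of both, TM7SF2 made up 53.8 ± 0.955% in LNCaP and 95.3 ± 0.761% in LNCaP-enzaR (SD, n = 3 each, two-sided exact permutation test, p = 0.10, the smallest that 3 against 3 libraries can give). With opposite changes and no overlap in either gene, this p of the share was fixed beforehand and adds no support. The sum itself was 40.0 ± 0.810 CPM per kilobase in LNCaP and 91.8 ± 5.32 in LNCaP-enzaR (exact permutation p = 0.10). The share and the sum depend on the length used, which is that of all annotated exons and not of the transcript expressed. In CPM without that length, LBR was the higher in LNCaP, with a mean of 105.6 beside 73.5 for TM7SF2.

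Among the 5 genes of the SREBP system, 2 fell, 1 rose and 2 did not pass, beside 42.7% of all genes past the threshold. The lines did not overlap in any of the 5, as in 70.6% of all genes. SREBF2 encodes SREBP-2, the factor that acts mainly on cholesterol genes, and had 363, 352 and 372 CPM in LNCaP and 237, 218 and 215 CPM in LNCaP-enzaR (1.62-fold lower, log2 fold change -0.70, SE 0.056, adjusted p = 5.27e-08). SREBF1 encodes SREBP-1, which acts mainly on fatty acid genes, and had 216, 215 and 222 CPM in LNCaP and 348, 294 and 278 CPM in LNCaP-enzaR (log2 fold change 0.49, SE 0.073, adjusted p = 3.16e-05). LNCaP-enzaR replicate 1 was the highest library for SREBF1, which stayed under the fold limit except under upper-quartile scaling (log2 fold change 0.59). SCAP, the escort that carries both SREBPs to the Golgi, had 103, 105 and 110.1 CPM in LNCaP and 144, 117 and 125 CPM in LNCaP-enzaR (log2 fold change 0.28, SE 0.071, adjusted p = 0.00334).

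The INSIG genes, whose products retain SCAP in the endoplasmic reticulum, went in opposite directions. INSIG1, itself an SREBP target, had 149, 132 and 139 CPM in LNCaP and 56.4, 58.5 and 55.1 CPM in LNCaP-enzaR (2.47-fold lower, log2 fold change -1.31, SE 0.061, adjusted p = 1.70e-10). INSIG2, whose level is known to depend less on sterol, had 16.1, 15.4 and 14.6 CPM in LNCaP and 25.6, 34.2 and 30.2 CPM in LNCaP-enzaR (1.95-fold higher, log2 fold change 0.97, SE 0.095, adjusted p = 5.28e-07). Values of INSIG1 in LNCaP-enzaR were tight, and all were below the lowest parental library. INSIG2 spread more in LNCaP-enzaR but stayed above every parental library.

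A ratio of 2 genes within a library does not depend on scaling between libraries, so the paralogs were also set against each other per kilobase of exon. SREBF1 over SREBF2 was 0.588 ± 0.00867 in LNCaP and 1.34 ± 0.0870 in LNCaP-enzaR, that is, SREBF2 was the more abundant in every parental library and SREBF1 in every LNCaP-enzaR library. INSIG1 over INSIG2 was 9.89 ± 0.548 and 2.07 ± 0.276, with INSIG1 the more abundant in all 6 libraries. For the LXR receptors, NR1H3 over NR1H2 was 0.306 ± 0.0273 and 0.0800 ± 0.00849. Each of these 3 ratios was separate between the lines (log2 differences of 1.19, -2.26 and -1.94). Each exact permutation test gave p = 0.10 (adjusted p = 0.10 over the 3), the smallest possible with 3 libraries a line. The genes of each pair moved in opposite directions without overlap between the lines. The separation and its p were thereby fixed beforehand and add no support to the single-gene results. Leaving out any single library kept the log2 differences at 1.13 to 1.22, -2.37 to -2.19 and -2.02 to -1.87.

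**Figure D3:**
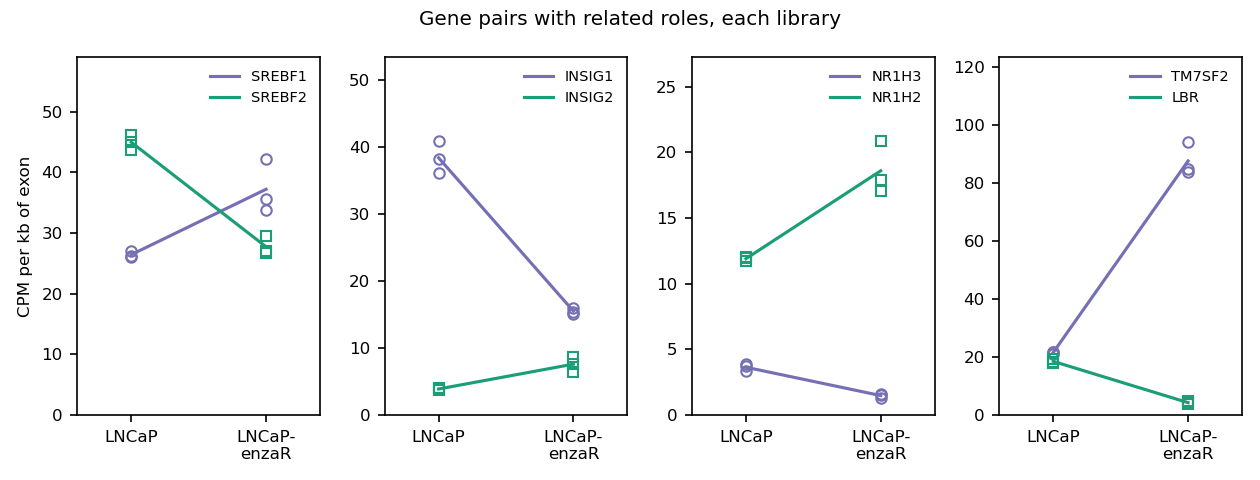
Level per kilobase of exon in each library for SREBF1 and SREBF2, INSIG1 and INSIG2, NR1H3 and NR1H2, and TM7SF2 and LBR, with lines joining the means of LNCaP and LNCaP-enzaR. The lines cross for SREBF1 and SREBF2, converge for INSIG1 and INSIG2, and diverge for the LXR pair and for TM7SF2 and LBR.

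Promoters were read for the letters that SREBPs and their partners bind, because many of these genes are known SREBP targets. RefSeq windows from 250 bases before to 50 bases after a gene start were given for 28 of the 32 genes (not for ACAT2, FDFT1, SCARB1 and SQLE). The sterol regulatory element consensus TCACNCCAC stood exactly, on either strand, in 1 of the 28 genes, SREBF2, compared with 1.39% of 27305 genes with a window and 1.43% of the 12234 that were also tested. With 1 mismatch allowed outside the N, it stood in 11 of 28 (39.3%), compared with 28.2% and 30.5%. The NF-Y letters CCAAT stood in 20 of 28 (71.4%), compared with 39.7% and 42.7%, among them 13 of 15 synthesis enzymes. The Sp1 letters GGGCGG stood in 27 of 28 (96.4%), compared with 48.3% and 73.6%. A match is a description of the letters and not of binding, and it can fall on another motif's bases. The following stretches are shown because they come from genes that fell and that held exactly 1 element match before the start. They run 5′ to 3′ on the strand of the gene (GRCh38.p14), with the element and each CCAAT or its reverse complement ATTGG in capitals.
SREBF2: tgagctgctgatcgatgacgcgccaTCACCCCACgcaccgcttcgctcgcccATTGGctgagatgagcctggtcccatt
MVK: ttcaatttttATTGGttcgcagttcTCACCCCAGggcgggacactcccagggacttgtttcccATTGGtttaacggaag
HSD17B7: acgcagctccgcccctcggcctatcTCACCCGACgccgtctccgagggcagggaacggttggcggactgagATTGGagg
They lie at chr22:41832947-41833025, chr12:109573574-109573652 and chr1:162790579-162790657, all on the plus strand, and the element begins 133, 195 and 98 bases before the start. In SREBF2 it is the full consensus, and in MVK and HSD17B7 it holds the 1 mismatch. In SREBF2 and HSD17B7 an inverted CCAAT follows downstream of the element, and in MVK 1 lies on either side. Starts are those of RefSeq, and the deposited gene model of MVK begins further upstream. The log2 fold changes of SREBF2, MVK and HSD17B7 were -0.70, -0.90 and -0.73. Of the 12 genes that fell and had a window, 10 held CCAAT and 6 the element with up to 1 mismatch. Of the 4 that rose, 1 and 0 did, and of the 12 that did not pass, 9 and 5.

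The LXR receptors, sterol-activated nuclear receptors, changed in opposite directions. NR1H3, LXR alpha, had 15.1, 17.6 and 16.8 CPM in LNCaP and 6.87, 6.04 and 7.24 CPM in LNCaP-enzaR (2.45-fold lower, log2 fold change -1.30, SE 0.095, adjusted p = 2.09e-08). NR1H2, LXR beta, had 64.2, 62.5 and 63.9 CPM in LNCaP and 111, 91.3 and 95.4 CPM in LNCaP-enzaR (1.56-fold higher, log2 fold change 0.64, SE 0.071, adjusted p = 1.83e-06). NR1H2 was highest in LNCaP-enzaR replicate 1, and a fit that left that library out gave a log2 fold change of 0.56, which did not pass. MYLIP, a ubiquitin ligase that LXR induces and that removes lipoprotein receptors, had 17.9, 18.1 and 18.5 CPM in LNCaP and 20.3, 21.2 and 21.0 CPM in LNCaP-enzaR (log2 fold change 0.20, SE 0.067, adjusted p = 0.0178), separate between the lines but under the fold limit. NR1H2 shared 22.1% of its exonic bases with NAPSA, which stayed at or below 0.272 CPM.

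Of the 6 genes of uptake, trafficking and storage, 4 fell, 1 rose and 1 did not pass (background 42.7% past the threshold), and the lines did not overlap in any (background 70.6%). STARD4, which carries sterol between the plasma membrane and the endoplasmic reticulum, had the largest decrease of the 32 genes. It had 36.2, 32.6 and 30.8 CPM in LNCaP and 3.94, 5.24 and 5.65 CPM in LNCaP-enzaR, means of 33.2 ± 2.77 and 4.95 ± 0.895 CPM, which is 6.69-fold lower (log2 fold change -2.74, SE 0.116, adjusted p = 5.77e-11). SOAT1, which esterifies cholesterol for storage in droplets, had 102, 94.7 and 93.1 CPM in LNCaP and 28.1, 34.2 and 33.7 CPM in LNCaP-enzaR (3.02-fold lower, log2 fold change -1.59, SE 0.078, adjusted p = 2.56e-10). No LNCaP-enzaR library of either gene came near the parental range.

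Both lipoprotein receptors fell. SCARB1, the receptor for high-density lipoprotein, had 146, 145 and 149 CPM in LNCaP and 78.4, 67.6 and 68.9 CPM in LNCaP-enzaR (2.05-fold lower, log2 fold change -1.04, SE 0.064, adjusted p = 3.09e-09). LRP8, a receptor of the low-density lipoprotein receptor family, had 34.4, 35.2 and 32.7 CPM in LNCaP and 21.9, 21.3 and 20.9 CPM in LNCaP-enzaR (1.60-fold lower, log2 fold change -0.68, SE 0.065, adjusted p = 4.21e-07). LRP8 was the closer of these to the limit, and under upper-quartile scaling its log2 fold change was -0.57, which did not pass.

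Of the lysosomal export pair, NPC1 rose and NPC2 did not pass. NPC1, the membrane protein that moves cholesterol out of lysosomes, had 40.8, 39.1 and 38.1 CPM in LNCaP and 103, 105 and 105 CPM in LNCaP-enzaR (2.65-fold higher, log2 fold change 1.41, SE 0.057, adjusted p = 3.79e-11), with almost no spread among the LNCaP-enzaR libraries. NPC2, the soluble partner that hands sterol to NPC1, had 24.2, 26.5 and 26.0 CPM in LNCaP and 39.1, 36.2 and 34.7 CPM in LNCaP-enzaR (log2 fold change 0.52, SE 0.070, adjusted p = 1.35e-05). NPC2 was higher in every LNCaP-enzaR library than in any parental one, and it passed the fold limit only under upper-quartile scaling (log2 fold change 0.62).

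**Figure D4:**
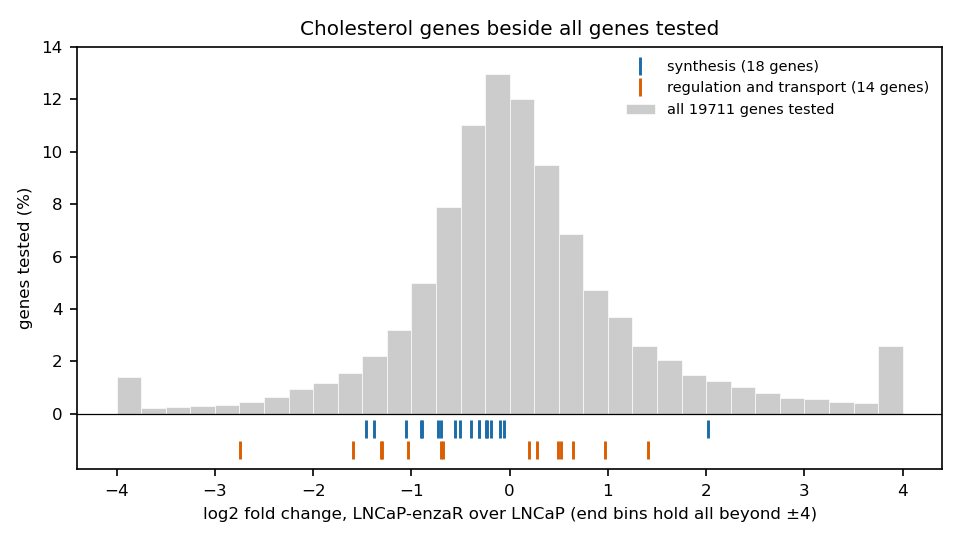
Share of all 19711 genes tested by log2 fold change of LNCaP-enzaR over LNCaP (grey bars, bins of 0.25, end bins hold all values beyond ±4), with a tick for each of the 18 synthesis enzymes (blue) and the 14 regulation and transport genes (orange). The synthesis enzymes sit in the left side of the bulk except for TM7SF2, and the other 14 genes spread from -2.74 to 1.41.

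By role, the 18 synthesis enzymes held 7 lower and 1 higher past the threshold and 17 negative changes, with a median of -0.45. The 14 regulation and transport genes held 7 lower and 3 higher, 7 negative changes and a median of -0.24. Of all genes tested, 49.5% had a negative change. The lines did not overlap in 15 of the 18 and in all of the 14, beside 70.6% of all genes. The shares that fell, 7 of 18 and 7 of 14, were above the 19.5% of all genes. The shares that rose were 1 of 18, below the 23.3% of all genes, and 3 of 14, close to it. LNCaP-enzaR replicate 1 was the highest library of its line in 19 of the 32 genes and LNCaP-enzaR replicate 3 in 2. LNCaP replicate 2 was the lowest of its line in 19.

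Genes around the pathway were counted in lists that the 32 genes do not include. Of 9 genes that process SREBPs or turn over sterol sensors, 1 fell and 8 did not pass, beside 42.7% of all genes past the threshold. It was FBXW7, the ubiquitin ligase subunit that marks nuclear SREBPs for breakdown, at 18.5 ± 1.06 CPM in LNCaP and 10.3 ± 0.193 CPM in LNCaP-enzaR (log2 fold change -0.84, adjusted p = 2.40e-07). The protease genes MBTPS1 and MBTPS2, which cut SREBPs in the Golgi and are added here for that role after their values were seen, had log2 fold changes of -0.21 and 0.02.

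Of 12 genes of the isoprenoid branch, which uses farnesyl diphosphate for prenyl groups, dolichol and ubiquinone, 4 fell and 2 rose, a share near the 42.7% of all genes. PDSS1, which builds the tail of ubiquinone, went from 26.9 ± 1.41 to 12.8 ± 0.960 CPM (log2 fold change -1.08, adjusted p = 2.08e-08), and RABGGTA, a subunit of a prenyl transferase for Rab proteins, from 37.4 ± 0.685 to 63.2 ± 6.66 CPM (0.76, adjusted p = 4.73e-07). The others, named after their values were seen, were NUS1 (-0.65), COQ2 (-0.66) and FNTB (-0.67), which fell, and DHDDS (0.67), which rose. Under upper-quartile scaling 1 fell and 3 rose.

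Of 11 genes of sterol transfer and lysosomes, 4 rose and none fell, where 42.7% of all genes tested passed and 23.3% rose. GRAMD1C, a sterol transfer protein at contact sites with the plasma membrane, went from 7.15 ± 1.02 to 16.8 ± 2.44 CPM (log2 fold change 1.23, adjusted p = 5.31e-07) and NCEH1, a cholesteryl ester hydrolase, from 10.9 ± 0.473 to 18.4 ± 0.494 CPM (0.76, adjusted p = 5.27e-07). The others, named after their values were seen, were GRAMD1A at 63.2 ± 3.93 and 110.8 ± 12.6 CPM (0.81) and GRAMD1B, which was under 0.2 CPM on average in both lines. LIPA, the lysosomal lipase that frees cholesterol for NPC2 and NPC1, was likewise added after its value was seen and had a log2 fold change of 0.05 (adjusted p = 0.530).

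Of 8 LXR targets and oxysterol enzymes, 7 were in the table, 4 were tested and 3 of those rose, beside 23.3% of all genes. ABCG1, a sterol exporter and LXR target, had 4.71, 5.01 and 6.09 CPM in the parental libraries and 43.6, 40.9 and 38.1 CPM in LNCaP-enzaR (7.77-fold higher, log2 fold change 2.96, adjusted p = 4.68e-12), with a wide gap between the lines. LPCAT3, a phospholipid remodelling enzyme, rose from 27.2 ± 1.16 to 69.4 ± 1.91 CPM (1.35, adjusted p = 1.33e-10). It shared 66.0% of its exonic bases with EMG1 on the other strand. Reads in these bases cannot be assigned without strand, and the level of EMG1 itself is not reported here. ABCA7, a lipid transporter named after its value was seen, rose from 19.5 ± 0.689 to 51.3 ± 8.15 CPM (1.39). The other gene tested, SMPDL3A, also named after its value was seen, went the other way but stayed under the fold limit. It was lower in every LNCaP-enzaR library than in any parental one (log2 fold change -0.20, edgeR adjusted p = 0.0381). The oxysterol enzymes CYP27A1 and CYP7B1 and SOAT2, an acyltransferase related to SOAT1, were at or near 0 and were not tested.

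Among 10 fatty acid genes that SREBP-1 drives, 4 fell and none rose, where 19.5% of all genes tested fell and 23.3% rose. ME1, malic enzyme, went from 67.2 ± 1.71 to 12.3 ± 1.007 CPM (log2 fold change -2.45, adjusted p = 1.84e-12) and ELOVL5, an elongase, from 360.1 ± 7.12 to 165.8 ± 10.5 CPM (-1.12, adjusted p = 4.52e-10). The others, named after their values were seen, were the desaturases FADS1 (-2.12) and FADS2 (-1.28). FASN, the fatty acid synthase, had a log2 fold change of 0.40 (edgeR adjusted p = 0.000457). It was higher in every LNCaP-enzaR library than in any parental one but under the fold limit. SCD, the stearoyl desaturase, had a log2 fold change of -0.01 and did not pass either. Both were also named after their values were seen.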

How the data were processed

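RNA sequencing was performed on 3 flasks each of LNCaP and LNCaP-enzaR, with the line and the replicate number taken from each title. Polyadenylated RNA was made into libraries by the authors, who trimmed paired-end reads with Cutadapt, aligned these to GRCh38 with STAR and the GENCODE annotation, and counted them per gene with featureCounts. The deposited values are raw counts per gene, with 77759122 to 98616465 per library. The strand setting and the handling of reads that map to several places are not given in the sources used here.

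The test was that of edgeR 4.0.16 under R 4.3.3 (filterByExpr, TMM, robust quasi-likelihood test, no covariates), with Benjamini-Hochberg adjustment over 19711 genes. The limits (adjusted p up to 0.05 and a change of 1.5-fold or more) are those of the study's methods, which used DESeq2. Here DESeq2 1.42.0 was an alternative. The others were RLE size factors, library totals, upper-quartile scaling, a filter of 10 counts in each library, none at all, only protein-coding genes, no mitochondrial genes, the replicate number as a block, each library left out in turn, and other fold limits. CPM uses TMM-scaled library sizes. Errors are SD unless named SE. Exonic length, strand and overlap came from a later GENCODE annotation of the same build, in which all 32 genes were found, and promoters from RefSeq. The edgeR test was checked on simulated counts in which far fewer genes differed than here. That check therefore does not cover scaling where so many genes differ.

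The 32 genes and the lists around them were chosen with earlier results of these data known. All 32 are reported. Of each further list, the text names the genes with the highest and lowest fold change among those that passed with a mean of at least 1 CPM, and says where others were added. Some further genes of the pathway are not reported here. Replicate numbers did not pair the lines, since the correlation of same-numbered deviations was -0.07 to -0.00041.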

Additional observations from a re-analysis of the deposited data

How the results depend on the processing

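Of the 32 genes, 25 kept their direction and their side of the threshold under all 15 alternatives of test, scaling, filter and libraries, and 7 changed (PMVK, IDI1, SC5D, SREBF1, NR1H2, LRP8 and NPC2). Only upper-quartile scaling turned a direction, with log2 fold changes of 0.0066 for PMVK and 0.041 for SC5D, neither of which passed. That scaling moved the median of all genes by 0.10 and the median of the 32 genes to -0.35, and gave 13 lower and 6 higher. Of the 32 genes, 17 to 19 passed over these alternatives. With no minimum fold, 30 of the 32 genes passed (22 lower and 8 higher), of them 16 synthesis enzymes and 14 regulation and transport genes, and 13074 genes in all. At a fold of at least 2, 10 of the 32 passed (8 lower and 2 higher), of them 4 synthesis enzymes and 6 regulation and transport genes, and 5561 genes in all. Leaving out single libraries gave 14 to 15 lower and 3 to 4 higher, 8 to 9 synthesis enzymes and 9 to 10 of the others, a median of -0.47 to -0.41, and 8372 to 8517 genes in all. With a replicate block, 18 of the 32 genes passed, their median was -0.45 and 8212 genes passed in all (8174 of them shared with the unblocked test), and no call on the 32 changed. The numbers are shared by name only. Depth did not limit the calls, since each of the 32 genes held at least 340 counts in every library, but with 1 resistant line their generality could not be tested.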

Other observations

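Noncoding neighbours of 2 of the genes can be set beside them. INSIG1-DT, which starts next to INSIG1 and is read the other way, stood at 7.65 ± 0.452 CPM in LNCaP and 10.5 ± 0.689 CPM in LNCaP-enzaR (log2 fold change 0.45, edgeR adjusted p = 0.000517), under the fold limit, while INSIG1 fell by 1.31 on the log2 scale. STARD4-AS1, antisense to STARD4, fell from 2.43 ± 0.323 to 0.469 ± 0.184 CPM (log2 fold change -2.37, edgeR adjusted p = 1.01e-06), beside -2.74 for STARD4. Reads in bases that STARD4 and STARD4-AS1 share cannot be assigned without strand. SREBF2-AS1 and CYP51A1-AS1 were near 1 CPM in both lines and overlapped (log2 fold changes 0.05 and -0.20).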
